A study of Mus musculus with 6 samples.

Results

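DNA replication machinery is described here as 46 genes of origin licensing, the replicative helicase, the polymerases, the sliding clamp, Okazaki fragment processing, chromatin assembly and the forks' checkpoint mediators, found by symbol in a table of 53735 genes. All 46 were in the table, and all 46 passed the filter on low values that left 14298 genes for testing. The study measured transcript levels in leukemia stem cells, defined by their capacity to propagate a leukemia, in 3 bone marrow libraries and 3 liver libraries. Both groups came from mice of strain C57, labelled male, 13 days after leukemia cells were transplanted, and neither was treated. Within a tissue the replicates are labelled technical and no animal is named for any, so every p-value here reflects library-to-library spread. Sex-linked RNA (Xist and Y-linked genes) differed between numbers 1 and 2 of each tissue, as given below, which goes against the label technical. How much of the spread is technical and how much lies between animals is not known. Neither the leukemia's driver nor the sorting markers are stated in the labels.

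As background, a cell copies its genome once per division. The origin recognition complex (ORC) marks the start points in G1, Cdc6 and Cdt1 load the ring of Mcm2 to Mcm7 onto DNA there, and the Cdc7 kinase with its partner Dbf4 then lets Cdc45 and the GINS proteins turn the ring into a working helicase. Polymerase alpha with primase starts each strand, polymerases delta and epsilon extend it on the PCNA clamp, and flap removal and ligation join the lagging strand. Many of these genes are textbook targets of the E2F transcription factors and are transcribed most in late G1 and S phase.

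Replication genes stood slightly higher in liver than in bone marrow, across nearly every complex. The log2 fold change, liver minus bone marrow, was positive for 44 of 46 members (95.7%), against 48.4% of the 14298 genes tested, and its median was 0.24 over the members and -0.01 over all genes tested. Of the 46, 4 rose in liver at an adjusted p under 0.05 (8.7%, against 0.42% of all genes tested). These were the MCM loader Cdt1, the helicase subunit Mcm5, the helicase partner Cdc45 and the transcription factor E2f2. None of the 46 fell by that criterion, against 0.594% of all genes, and 42 did not pass. At an unadjusted p under 0.05, 31 members were higher (67.4%, against 7.65% of all genes) and 1, Rfc2, was lower (against 8.04%). All 3 liver libraries lay above all 3 bone marrow libraries in 29 members (63%), against 11.4% of all genes, and below them in Rfc2 alone, against 10.9% of all genes. The tissues overlapped in 16 members, against 77.7% of all genes. In these bulk samples more cells of a kind and more RNA per cell cannot be told apart.

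**Figure D1:**
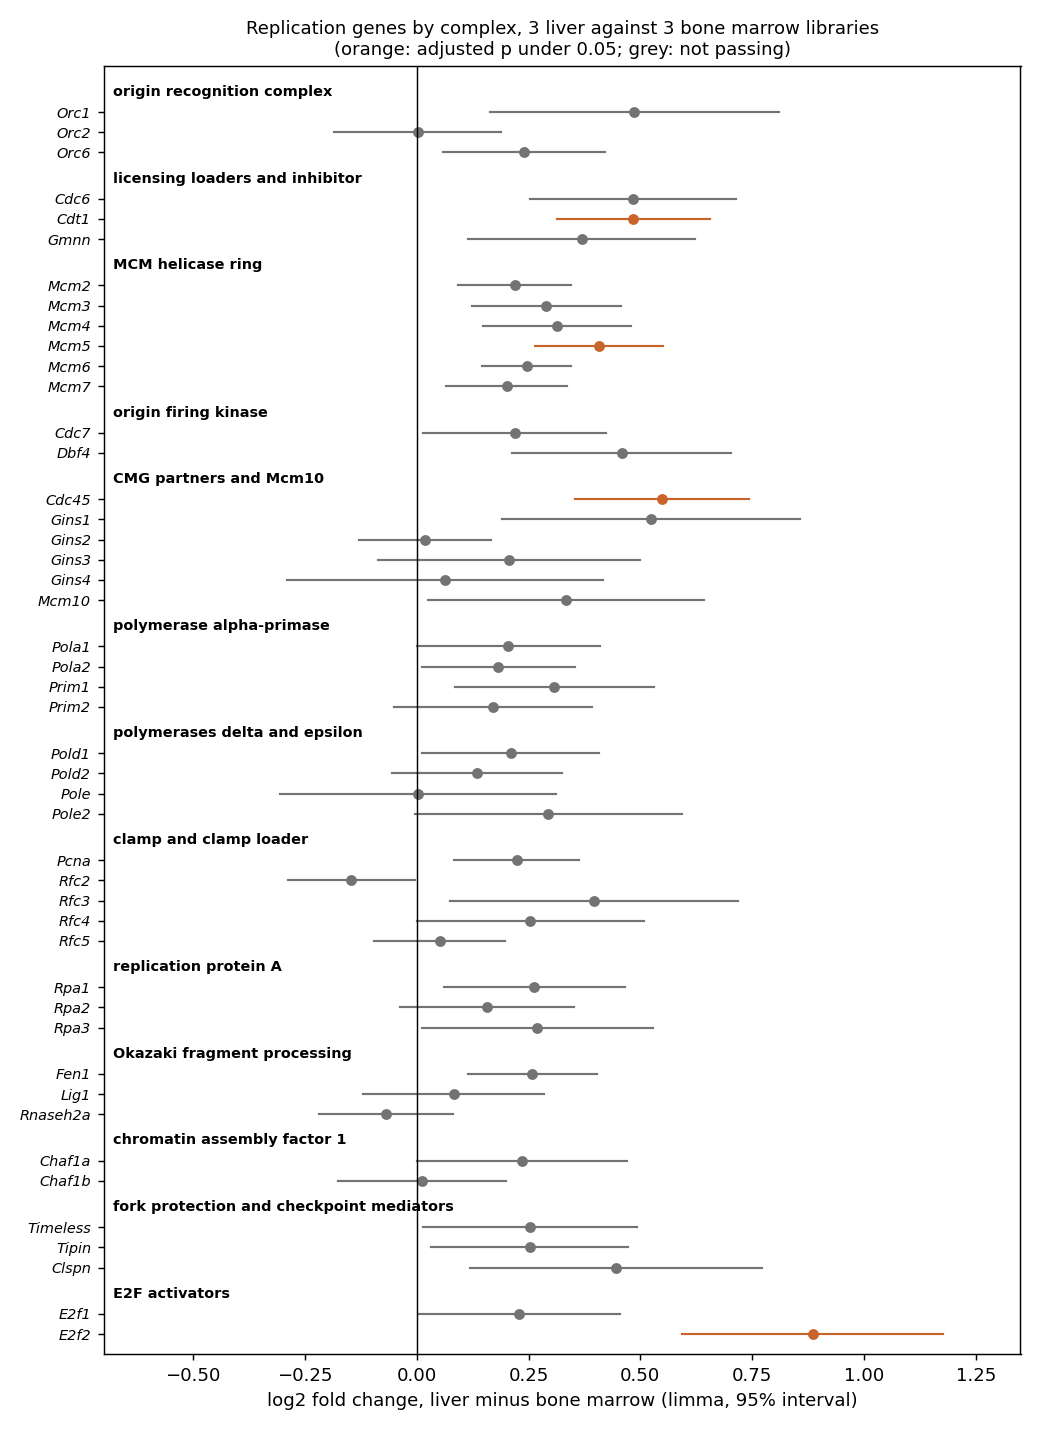
Log2 fold change (horizontal axis, liver minus bone marrow) of the 46 replication genes, grouped by complex on the vertical axis, with bars for the 95% interval from limma over 3 against 3 libraries. Nearly all points lie right of 0, and the 4 in orange (Cdt1, Mcm5, Cdc45, E2f2) passed the adjusted threshold.

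The 4 calls were kept by edgeR and DESeq2 but depended on the libraries used. A limma fit with the replicate number as a further term called 9 members higher (against 1.41% of all genes), the 4 among them. DESeq2 on recovered reads called 11 members higher (against 1.92% of all genes), adding Cdc6, Mcm2, Mcm3, Mcm4, Mcm6, Dbf4 and Fen1 to the 4. Leaving out any 1 library other than liver replicate 1 left 0 members past the limma threshold, with 20 to 25 of 46 at an unadjusted p under 0.05 in either direction, against 10.2% to 15.9% of all genes in those fits. Leaving out liver replicate 1 gave 6, against 1.48% of all genes. The median of the members stayed between 0.21 and 0.25 in these fits.

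Recovered reads summed to between 15404687 and 18478084 per bone marrow library and between 9731597 and 13819061 per liver library, so the shallower libraries were all from liver, and thinning all to equal depth called 5 members (against 0.336% of all genes) with a median of 0.25. The libraries numbered 1 went against the label male: Xist, the RNA of an inactive X, reached 4860 (bone marrow) and 6229 (liver) normalized counts there, against 4.28 and 1.42 in those numbered 2 and 2486 and 2425 in those numbered 3, which held both Xist and Y-linked RNA. In both tissues the Xist and Y-linked levels of number 3 lay between those of 1 and 2. Whether number 3 is a library independent of the others is not known, so each n of 3, with its SD, SE and p, assumes an independence that the labels do not establish. Without both libraries numbered 3, limma called 0 members (12 at an unadjusted p under 0.05, against 5.64% of all genes) and 2 of all genes, with a members' median of 0.24, and without both numbered 1 it called 2, Mcm5 and E2f2 (against 0.72% of all genes), with a median of 0.27. Without both numbered 2 it called 0 members (16 at an unadjusted p under 0.05, against 12.4% of all genes), with a median of 0.21. The cells carried blood cell markers, among them Ptprc (CD45), with bone marrow and liver means of 3517 and 3239 normalized counts, and the stem cell receptor gene Kit at 511 and 652. Of 8 such genes, 3 had positive and 5 negative log2 fold changes and none passed. The progenitor marker gene Cd34 was lower in every liver library, with means of 1626 and 1085 (-0.54, adjusted p = 0.245), and Gata2 had means of 14025 and 12022 (-0.23, adjusted p = 0.299). Of 9 hepatocyte genes in the table, 6, Alb, Ttr and Fgb among them, were at 0 reads in all 6 libraries. The remaining signal of that list was nearly all Apoa1, and its sum was 2668 to 5664 in bone marrow and 2302 to 3018 in liver. Mature neutrophil genes summed to 36.8 to 65.4 in bone marrow, against 18.8, 389 and 177 in liver replicates 1, 2 and 3. Erythroid sums were 5748 to 6706 in bone marrow against 3288 to 4436 in liver. Kupffer cell sums were 338 to 504 against 177 to 449, nearly all Adgre1, with Clec4f, Vsig4 and Cd5l at 0 in every library. B cell sums were 31.2 to 47.6 against 9.88 to 42.6. The part of these cells in the results was not tested.

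Sequence near the start sites was examined because most members stood higher in liver and one of those that rose encodes an E2F factor. RefSeq windows running from 250 bases before to 50 after a start site (GRCm38.p6) matched 37 of the 46 members and gave 45 windows. Gmnn, Mcm4, Gins1, Gins2, Gins4, Prim2, Pole, Rfc2 and Tipin had no window and were not searched. Both strands were searched for 4 words of 8 letters that spell the usual E2F motif (TTTGGCGC, TTTGCCGC, TTTCGCGC and TTTCCCGC), for the same words without their first T, which every longer match also contains, and for CCAAT, the box bound by NF-Y. An 8-letter word was found in 15 of 45 members' windows (33.3%), against 3.88% of 11560 windows of genes tested here and 2.26% of all 32851 windows. The 7-letter words were in 26 of 45 (57.8%), against 16.4% and 9.57%. CCAAT was in 26 of 45 (57.8%), against 38% and 37.4%. In 59 windows of other replication genes that are not members, the shares were 32.2% for 8 letters, 50.8% for 7 and 39% for CCAAT. A match is a stretch of letters, not a measured binding site.

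Shown first are stretches of 30 bases around the first 8-letter match in the windows of the ORC genes, the licensing factors, the MCM ring and the E2F genes, for the 8 of those genes that held one. Gmnn and Mcm4 are absent because they had no window. Another start site of Mcm7 held no 8-letter word. Each reads 5′ to 3′ on the gene's own strand, with the 8-letter E2F words in capitals.
Orc1: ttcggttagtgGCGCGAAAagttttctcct
Cdc6: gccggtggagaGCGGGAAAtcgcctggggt
Cdt1: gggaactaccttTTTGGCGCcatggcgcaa
Mcm3: aaacttccgtgGCGGGAAAacttgggaagt
Mcm5: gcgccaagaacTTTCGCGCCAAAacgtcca
Mcm6: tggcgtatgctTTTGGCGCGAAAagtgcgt
Mcm7: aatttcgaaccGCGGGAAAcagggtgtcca
E2f2: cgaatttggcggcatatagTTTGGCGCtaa
Their positions are Orc1 at chr4:108579416-108579445 on the plus strand, Cdc6 at chr11:98908002-98908031 on the plus strand, Cdt1 at chr8:122568035-122568064 on the plus strand, Mcm3 at chr1:20820275-20820304 on the minus strand, Mcm5 at chr8:75109345-75109374 on the plus strand, Mcm6 at chr1:128359797-128359826 on the minus strand, Mcm7 at chr5:138172030-138172059 on the minus strand, E2f2 at chr4:136172294-136172323 on the plus strand. The ring genes Mcm5 and Mcm6 share a run of 12 bases in which 2 words overlap on opposite strands. It reads TTTCGCGCCAAA in Mcm5, from 153 to 142 bases before the start, and its exact reverse complement TTTGGCGCGAAA in Mcm6, from 110 to 99 bases before it. Overlapping 8-letter words were found in these 2 of the members' 45 windows and in 4 of all 32851.

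Upstream windows of Mcm5 and Cdc45 are given in full because both genes rose and they differ in these words. They span the 250 bases before the RefSeq start, with E2F words of 7 or 8 letters and CCAAT (or its reverse complement, attgg) in capitals.
Mcm5: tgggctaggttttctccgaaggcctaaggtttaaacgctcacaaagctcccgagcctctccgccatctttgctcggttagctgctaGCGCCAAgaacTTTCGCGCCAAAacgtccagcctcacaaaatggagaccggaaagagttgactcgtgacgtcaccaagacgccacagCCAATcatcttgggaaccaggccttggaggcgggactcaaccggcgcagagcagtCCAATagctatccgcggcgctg
Cdc45: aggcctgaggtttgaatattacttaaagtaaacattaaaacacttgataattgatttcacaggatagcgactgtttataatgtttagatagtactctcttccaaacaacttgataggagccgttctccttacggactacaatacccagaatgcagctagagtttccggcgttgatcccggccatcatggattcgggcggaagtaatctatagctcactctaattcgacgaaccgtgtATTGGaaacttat
The Mcm5 stretch is chr8:75109259-75109508 on the plus strand and holds 3 E2F words of 7 letters and 2 CCAAT boxes. The Cdc45 stretch is chr16:18811973-18812222 on the minus strand and holds 0 E2F words and 1 CCAAT box. Of the 4 genes that rose, Cdt1, Mcm5 and E2f2 (at the first of its 2 start sites) held an 8-letter word, and Cdc45 held none. Among the 37 members with a window, 15 held one (40.5%), and most of those did not pass. The words of Cdt1 and E2f2 lay after the RefSeq start, and that start of E2f2 (136172274) precedes the GENCODE gene start (136172394). The RefSeq start of Mcm5 (75109509) likewise precedes its GENCODE gene start (75109569), and that of Mcm6 lies upstream of its own. The distances given for these genes therefore depend on the start used. Whether these words go with the rise was not tested.

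**Figure D2:**
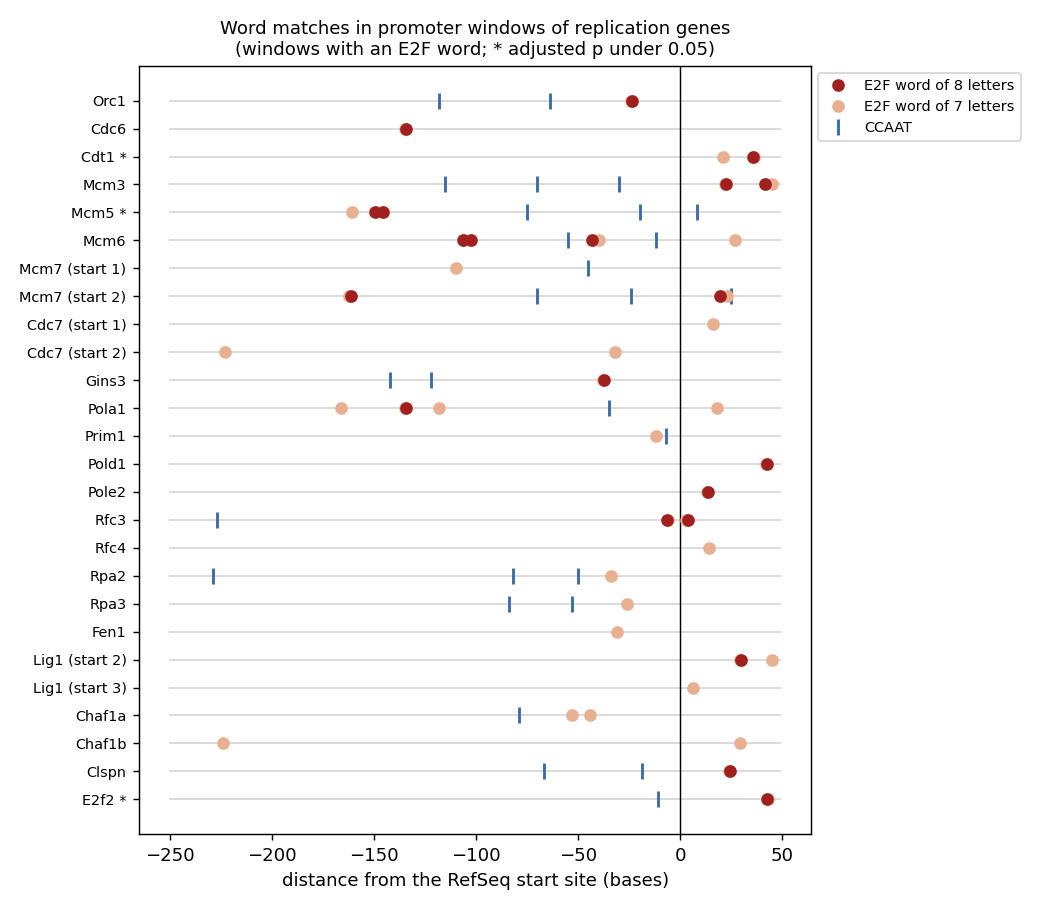
Positions of E2F words (circles, dark for 8 letters, light for 7) and CCAAT (blue ticks) along the windows of replication genes that hold an E2F word, on an axis of bases from the RefSeq start site, with genes that passed the adjusted threshold starred. Matches lie on both sides of the start, and the overlapping pairs of Mcm5 and Mcm6 lie upstream of it.

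The counts by complex that follow stand beside 0.42% of all genes called higher and 11.4% with every liver library above every bone marrow library. Each complex holds few genes, and none was tested as a set. Among origin recognition genes, ORC being the complex that binds origins, 0 of 3 passed. Orc1 held 146, 176 and 144 normalized counts (deposited counts scaled for library depth) in bone marrow replicates 1, 2 and 3, and 215, 222 and 214 in liver. All liver libraries were above all bone marrow libraries, with a log2 fold change of 0.49 ± 0.14 (SE) and an adjusted p of 0.158. Orc6 held 768, 743 and 688 in bone marrow and 901, 854 and 841 in liver, again without overlap (log2 fold change 0.24, adjusted p = 0.203). Orc2 averaged 757 ± 23.5 in bone marrow and 758 ± 47 in liver (SD, n = 3 each), and its log2 fold change was 0.00 with a 95% interval of -0.18 to 0.19. Of the 3 genes, 2 were separated by tissue and Orc2 overlapped. Orc2 shares 1150 exon bases with Nif3l1 on the other strand, whose log2 fold change was -0.02.

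Of the 3 licensing genes, 1 rose and all 3 had groups that did not overlap. Cdt1, which brings the MCM ring to origins, held 646, 598 and 645 normalized counts in bone marrow and 872, 884 and 885 in liver. The liver libraries lay close together and above all bone marrow libraries, with a log2 fold change of 0.48 ± 0.07 (SE, adjusted p = 0.040). Cdt1 lies on chromosome 8 from 122568015 to 122573554 on the plus strand (GENCODE M21, GRCm38) and shares no exon base with another annotated gene. Cdc6, the ATPase that works with Cdt1, held 578, 692 and 713 in bone marrow and 887, 920 and 956 in liver, a log2 fold change of 0.48 ± 0.10 that did not pass (adjusted p = 0.076). Gmnn encodes geminin, the inhibitor that binds Cdt1 and blocks relicensing. It held 715, 778 and 657 in bone marrow and 830, 1039 and 913 in liver, a log2 fold change of 0.37 (adjusted p = 0.172). The loaders and their inhibitor were thus all on the higher side in liver.

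All 6 genes of the MCM ring, the motor of the replicative helicase, had positive log2 fold changes from 0.20 to 0.41 and groups that did not overlap. Mcm5 rose, with 4081, 3766 and 3792 normalized counts in bone marrow and 4853, 5415 and 5178 in liver (log2 fold change 0.41 ± 0.06 (SE), adjusted p = 0.040). It lies on chromosome 8 from 75109569 to 75128439 on the plus strand and shares no exon base with another gene. The other 5 did not pass. Mcm6 held 7803, 7746 and 7606 in bone marrow and 9262, 9284 and 8918 in liver (log2 fold change 0.25 ± 0.04, adjusted p = 0.051), just outside the threshold. Mcm4 held 2535, 2341 and 2162 against 2954, 2981 and 2797 (0.31, adjusted p = 0.098). Mcm3 held 4196, 4281 and 4285 against 4807, 5764 and 5074 (0.29, adjusted p = 0.116), with its highest value in liver replicate 2. Mcm2 held 4206, 4441 and 4151 against 5199, 4851 and 4846 (0.22, adjusted p = 0.116), with its highest value in liver replicate 1. Mcm7 held 3318, 3364 and 3494 against 3720, 4135 and 3856 (0.20, adjusted p = 0.161). Mcm7 shares exon bases with Cops6, Ap4m1 and 2 microRNA genes, so its value is uncertain by that overlap.

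Levels within the ring can be compared per length of annotated exon. In bone marrow the normalized counts per kilobase were 1654 ± 21.8 for Mcm6, 1134 ± 13.4 for Mcm3, 972 ± 43.8 for Mcm5, 766 ± 20.6 for Mcm7, 654 ± 51.9 for Mcm4 and 613 ± 22.1 for Mcm2 (SD, n = 3). The same order held in liver, with 1962 ± 44.1, 1390 ± 132, 1289 ± 70.7, 882 ± 47.8, 811 ± 27.6 and 714 ± 29.1. Mcm4 and Mcm2 overlapped in bone marrow, and Mcm3 and Mcm5 overlapped in liver, so those neighbours were not separated by the spread between libraries. The exon lengths come from GENCODE, take in every annotated exon of a gene and need not be those used for counting. The order depends on them, most of all for Mcm2, with 6956 bases against 3752 for Mcm3. Without division by length, Mcm2 and Mcm3 averaged 4266 and 4254 normalized counts in bone marrow and 4965 and 5215 in liver. Mcm2 is thus not shown to be the least abundant of the ring.

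**Figure D3:**
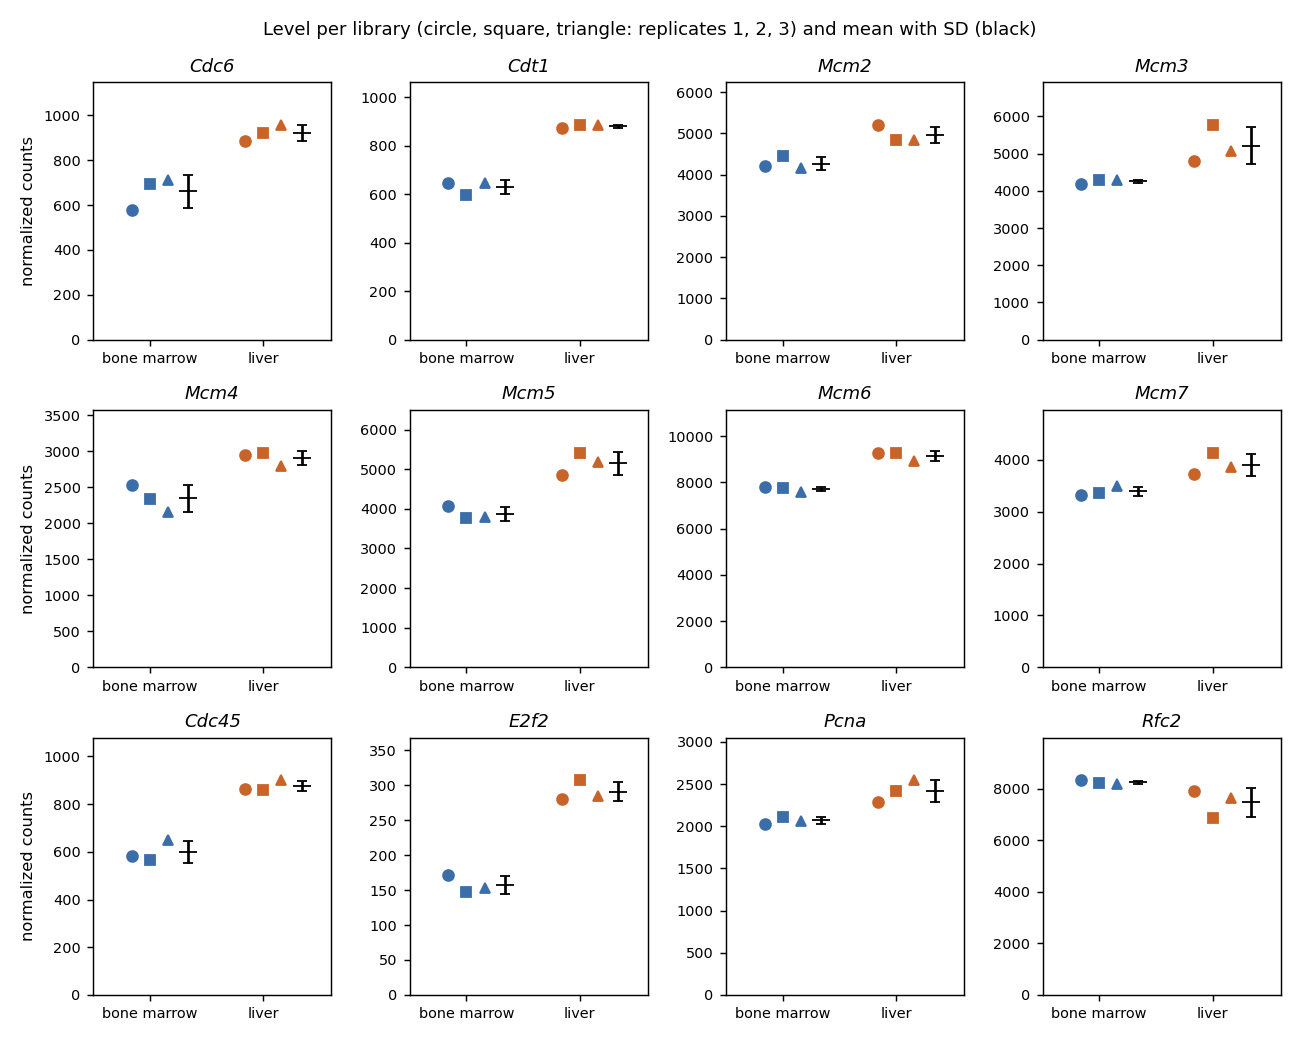
Normalized counts (vertical axes from 0) of 12 replication genes in each library, with bone marrow in blue, liver in orange, replicates 1, 2 and 3 as circle, square and triangle, and the mean with its SD in black. The liver libraries lie above the bone marrow libraries in each panel except that of Rfc2.

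Helicase activation showed 1 of 8 genes passing. Cdc45, which completes the active helicase together with GINS, held 582, 565 and 650 normalized counts in bone marrow and 865, 860 and 900 in liver. Every liver library was above every bone marrow library, and the log2 fold change was 0.55 ± 0.08 (SE, adjusted p = 0.040). The gene occupies chr16:18780447-18811987 (minus strand). It shares 209 exon bases with Ufd1 on the other strand, listed as Ufd1l in the table, whose log2 fold change was 0.11 (adjusted p = 0.679). Dbf4, the activating partner of the Cdc7 kinase, held 650, 526 and 648 in bone marrow and 826, 799 and 873 in liver (0.46, adjusted p = 0.099). Cdc7 itself held 495, 551 and 534 against 627, 634 and 578 (0.22, adjusted p = 0.291). Neither of the pair overlapped between tissues.

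Among the 4 GINS genes, whose proteins form 1 complex, Gins1 alone was separated by tissue and none passed. Gins1 held 194, 167 and 211 normalized counts in bone marrow and 246, 281 and 295 in liver, with no overlap (log2 fold change 0.52 ± 0.14 (SE), adjusted p = 0.145). Gins2 stood at 1281 ± 26.2 and 1299 ± 50.9, a difference of 0.02 with an interval of -0.13 to 0.17. It shares 2758 exon bases with Gse1 on the other strand. Gins4 spread widely in liver, with 617, 860 and 908 against 811, 748 and 697 in bone marrow, so that liver replicate 1 was the lowest and the other two liver libraries the highest of the 6. Gins3 stood at 277 ± 32.6 and 319 ± 18.8, with overlap (0.21, adjusted p = 0.486). Mcm10, which helps activate the helicase, held 680, 568 and 758 against 917, 870 and 735, and the tissues overlapped (0.33, adjusted p = 0.289).

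No polymerase gene passed, 0 of 8, although all had a positive log2 fold change. In the polymerase alpha and primase complex, which lays down the primers, the primase subunit gene Prim1 held 736, 862 and 784 normalized counts in bone marrow and 898, 1062 and 991 in liver (log2 fold change 0.31, adjusted p = 0.191). Pola1, the catalytic subunit gene on the X chromosome, stood at 1035 ± 91.2 and 1191 ± 66.8 with overlap (0.20, adjusted p = 0.318), and Pola2 at 1020 ± 44.8 and 1159 ± 61.4 without (0.18, adjusted p = 0.291). Pola1 was highest in replicate 1 of each tissue, at 1124 in bone marrow and 1248 in liver. Prim2 had 0.17, with 451 ± 36 and 508 ± 15. For polymerase delta, which copies the lagging strand, Pold1 stood at 1992 ± 227 and 2295 ± 39.2 (0.21, adjusted p = 0.294) and Pold2 at 1316 ± 50.3 and 1448 ± 126 (0.13). For polymerase epsilon, which copies the leading strand, the catalytic subunit gene Pole held 822, 963 and 808 against 975, 920 and 718, a log2 fold change of 0.00 with an interval of -0.31 to 0.31. Its partner Pole2 held 232, 282 and 269 against 324, 345 and 290, with no overlap (0.29, adjusted p = 0.324). Whether Pole and Pole2 differed from each other was not tested.

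The clamp gene Pcna held 2029, 2111 and 2065 normalized counts in bone marrow and 2293, 2416 and 2543 in liver. No libraries overlapped, and the log2 fold change was 0.22 ± 0.06 (SE, adjusted p = 0.141). Of 4 genes of its loader, replication factor C, Rfc3 was separated with liver higher, Rfc2 with liver lower, and Rfc4 and Rfc5 overlapped. Rfc3 held 369, 385 and 340 against 396, 543 and 513 (0.40, adjusted p = 0.232). Rfc4 stood at 803 ± 42.9 and 962 ± 128 (0.25, adjusted p = 0.318) and Rfc5 at 1882 ± 83.9 and 1950 ± 75.1 (0.05, interval -0.10 to 0.20). Rfc4 shares 194 exon bases with Eif4a2 on the other strand (0.13, adjusted p = 0.509). Rfc5 shares 499 with Wsb2 on the other strand (-0.52, adjusted p = 0.093).

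Rfc2 was the 1 member whose liver libraries all lay below the bone marrow libraries, with 8320, 8221 and 8187 normalized counts in bone marrow and 7917, 6847 and 7628 in liver. The log2 fold change of -0.15 ± 0.06 (SE) did not pass (adjusted p = 0.307). Rfc2 also stood apart in level, at 1308 ± 11 normalized counts per kilobase of exon in bone marrow against 101 ± 6.39, 523 ± 28 and 403 ± 18 for Rfc3, Rfc4 and Rfc5. It lies on chromosome 5 from 134581366 to 134601805 on the plus strand and shares 952 exon bases with Lat2, a signalling adaptor gene of blood cells on the other strand. Lat2 held 6191, 6469 and 6565 in bone marrow and 4927, 5177 and 5001 in liver, and fell by 0.35 on the log2 scale (adjusted p = 0.033). Since the library kit does not mark the strand, reads from the shared bases cannot be told apart, and the part of Lat2 in the Rfc2 values was not tested. Lat2 was looked at after the values of Rfc2 were seen.

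Replication protein A, which coats single-stranded DNA, had 0 of 3 genes passing. Rpa1 held 2223, 1880 and 1831 normalized counts in bone marrow and 2443, 2421 and 2235 in liver (log2 fold change 0.26, adjusted p = 0.208). Rpa3 held 587, 581 and 590 against 603, 777 and 753 (0.27, adjusted p = 0.302), so its liver libraries were higher but liver replicate 1 only just. Rpa2 stood at 1373 ± 22.8 and 1537 ± 151 (0.16, adjusted p = 0.425).

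In Okazaki fragment processing, the flap nuclease gene Fen1 held 2078, 2321 and 2096 against 2566, 2590 and 2603 (0.26 ± 0.06 (SE), adjusted p = 0.109), with no overlap and little spread in liver. Fen1, with 2422 exon bases, shares exon bases with Gm10143 and Tmem258 on the other strand, 2039 when summed over both. Tmem258 had a log2 fold change of 0.03. The ligase gene Lig1 stood at 1879 ± 170 and 1988 ± 142 (0.08, interval -0.12 to 0.29). Rnaseh2a, the catalytic subunit gene of RNase H2, stood at 1476 ± 42.6 and 1408 ± 62.9 (-0.07, interval -0.22 to 0.08), and with Rfc2 it was the other member with a negative estimate.

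Chromatin assembly factor 1, which places new histones behind the fork, gave 0 of 2 genes passing. Chaf1a averaged 1231 ± 159 (bone marrow) and 1444 ± 77.4 (liver) normalized counts (log2 fold change 0.24, adjusted p = 0.315), and 4648 of its exon bases are shared with Ubxn6. Chaf1b stood at 869 ± 53.8 and 876 ± 45.5 (0.01, interval -0.18 to 0.20). The fork protection genes Timeless and Tipin, whose proteins form a pair, had similar estimates of 0.25 each. Tipin held 1388, 1460 and 1437 against 1523, 1946 and 1663 (adjusted p = 0.263), and Timeless 740, 659 and 743 against 782, 959 and 818 (adjusted p = 0.295), both without overlap and both highest in liver replicate 2. Clspn, the gene of claspin, which relays the checkpoint signal to the kinase CHK1, held 286, 282 and 358 against 428, 462 and 370 (0.45, adjusted p = 0.195).

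Of the E2F activators, E2f2 had the largest difference of the 46 members. It held 171, 147 and 153 normalized counts in bone marrow and 281, 307 and 285 in liver, a ratio of means of 1.85. No bone marrow library came near a liver library, and the log2 fold change was 0.89 ± 0.12 (SE, adjusted p = 0.035). These values rest on 569 reads in bone marrow and 737 in liver, and the lowest count of any member in 1 library was 156 reads. E2f2 lies on chromosome 4 from 136172394 to 136196057 on the plus strand and shares no exon base with another gene. E2f1 held 537, 487 and 595 against 621, 645 and 625, a log2 fold change of 0.23 ± 0.10 that did not pass (adjusted p = 0.312). Whether the 2 factors differed from each other was not tested.

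A list of 61 further replication genes, holding the rest of these complexes, checkpoint kinases, S-phase cyclins and E2F partners, was measured beside the members. Of these, 53 had positive and 8 negative log2 fold changes, where 48.4% of all genes tested were positive. Their median was 0.12 against 0.24 in the members. Uhrf1, which reads hemimethylated DNA at forks, was the 1 that rose (against 0.42% of all genes tested), and 60 did not pass. Uhrf1 held 1608, 1621 and 1634 normalized counts in bone marrow and 2246, 2261 and 2329 in liver (log2 fold change 0.49, adjusted p = 0.018). The largest estimate was that of Chek1, the gene of the checkpoint kinase CHK1, with 271, 290 and 210 against 406, 418 and 385 (0.66, adjusted p = 0.088). The histone chaperone gene Asf1b had 0.49 (adjusted p = 0.068), the S-phase cyclin gene Ccna2 0.31 (adjusted p = 0.070), the chromatin remodelling gene Ssrp1 0.26 (adjusted p = 0.071), and the cell cycle transcription factor gene Mybl2 0.41 (adjusted p = 0.080). Among the remaining ORC genes, Orc3, Orc4 and Orc5 had 0.10, 0.09 and -0.09. Among helicase relatives that are not in the ring, Mcm8 and Mcm9 had 0.19 and 0.15.

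**Figure D4:**
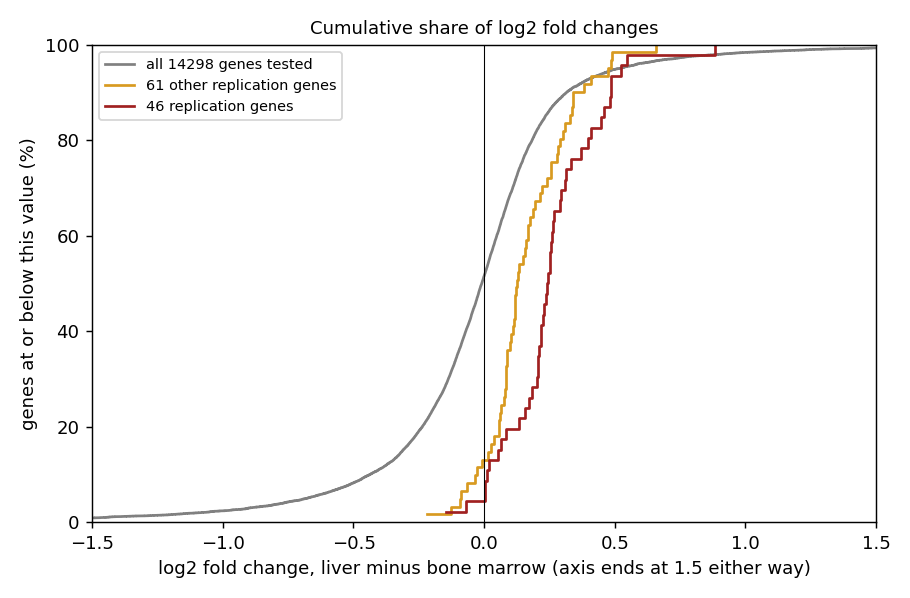
Cumulative share of genes (vertical axis, percent) at or below each log2 fold change (horizontal axis, liver minus bone marrow) for the 46 replication genes, the 61 further replication genes and all 14298 genes tested. The curve of the members crosses its midpoint at 0.24, that of the further genes at 0.12 and that of all genes at -0.01.

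The median deviation of the 46 from each gene's mean over the 6 libraries, on the log2 scale, was -0.13, -0.11 and -0.13 in bone marrow replicates 1, 2 and 3 and 0.08, 0.17 and 0.10 in liver, while that of all genes tested was at most 0.01 in every library. Of the 46, 25 had their highest value in liver replicate 2, 11 in liver replicate 3, 7 in liver replicate 1 and 3 in bone marrow. The members took 0.504% to 0.515% of the summed normalized counts of a bone marrow library and 0.579% to 0.597% of those of a liver library.

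A list of 12 mitosis genes had median deviations of -0.11, -0.17 and -0.15 in bone marrow and 0.07, 0.27 and 0.12 in liver. All 12 had positive log2 fold changes (against 48.4% of all genes tested) with a median of 0.30. Hmmr, which encodes a spindle-associated protein, was the 1 that passed (0.42% of all genes were called higher). Mki67, the gene of the proliferation marker Ki-67, stood at a mean of 3990 in bone marrow and 4548 in liver (0.19, adjusted p = 0.130). Liver replicate 2 was highest both for the replication members and for the mitosis genes, and it was the shallowest library and the one with the most mature neutrophil RNA. The part of these in the members' values was not tested.

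**Figure D5:**
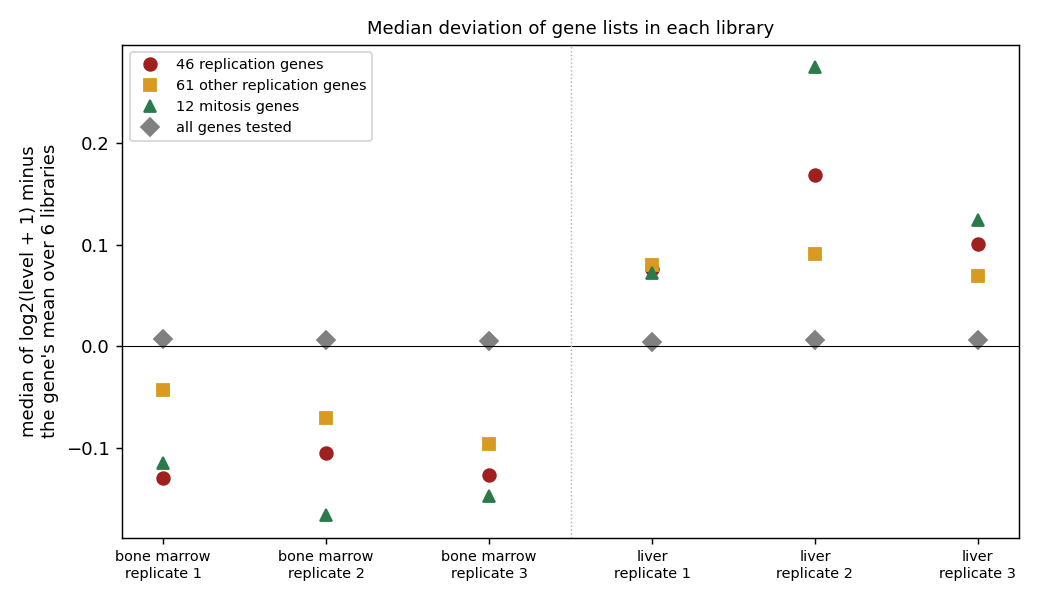
Median over each gene list of the deviation of log2(normalized count + 1) from the gene's mean over 6 libraries (vertical axis), by library (horizontal axis), for the 46 replication genes, the 61 further ones, 12 mitosis genes and all genes tested. The 3 listed groups lie below 0 in bone marrow and above 0 in liver, with all genes tested near 0 throughout.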

How the data were processed

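Per the labels' protocols, RNA of 3 bone marrow and 3 liver samples was extracted with QIAGEN RNeasy Plus, and libraries were made with the Clontech SMARTer low-input kit and Nextera XT. These kits do not mark the strand. Tools named in the submitters' processing notes are STAR 2.6.0c, Trimmomatic 0.36, R 3.4.1, DESeq2 1.16.1 and bcl2fastq 2.19.0; the genome build and the program that counted reads are not stated. Values are a signal, normalized counts per gene as deposited, which per the notes and the table's name came from DESeq2. In each library 100% of values were whole multiples of 1 read's value within 0.01, so whole reads were recovered.

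Tissue was the only term in a limma fit (version 3.58.1, R 4.3.3, trend on) to log2(normalized count + 1). Tests were two-sided, with Benjamini-Hochberg adjustment across the 14298 genes with a mean of at least 10. This scale understates the change of low genes. edgeR 4.0.16 and DESeq2 1.42.0 were run on recovered reads, where they called 135 and 622 of all genes. No 2 libraries of a tissue agreed within sampling noise (chi-square per degree of freedom 6.75 to 27.8).

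All 46 members are described by complex. A log2 fold change and adjusted p are given for those that passed and for the smallest adjusted p of each complex. The same holds for those of the 61 further genes that passed. An SE or interval is given only for some. Any other gene named was picked with its values in view. The members and lists were chosen with earlier results of these data known. Promoters are from RefSeq (GRCm38.p6), and positions are from GENCODE M21, matched by symbol and not used for counting here. 17 of the 46 members share exon bases with another annotated gene, and not every such overlap is named above. Reads from shared bases cannot be assigned by strand. Of the hepatocyte list, 1 symbol was not matched. Figures were drawn with matplotlib 3.10.9.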

Additional observations from a re-analysis of the deposited data

How the results depend on the processing

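Members called stayed at 4 or 5 with TMM factors, quantile normalization, edgeR, a pseudocount of 0.5 or 10, a minimum mean of 50 or none, and thinning to equal depth. DESeq2 called 11 members, 622 of all genes (145 with limma) and 8 further replication genes (1 with limma, 2 after quantile normalization). The labels do not say what a replicate number marks. Same-numbered libraries of the tissues were alike in Xist and Y-linked RNA. Their deviations over all genes tested correlated at 0.443, 0.399 and 0.058 for numbers 1, 2 and 3. Unlike numbers 1 and 2 correlated across tissues at -0.380 and -0.440. Liver replicate 3 correlated best with bone marrow replicate 2 (0.151). Over the 46 members alone, same-number correlations were -0.002, 0.148 and -0.178 for numbers 1, 2 and 3. Those of unlike numbers ran from -0.168 to 0.157 there, so the likeness by number was not seen in the members. On the main axis of spread over all genes tested (40.9% of variance), number 3 lay between 1 and 2 in both tissues. Deviations of number 3 from the tissue mean can thus be small, so its low correlation cannot decide on pairing. The second axis (27.9%) separated the tissues. Numbers 1 and 2 were alike across tissues over all genes tested, but no label ties a number to an animal. With a replicate block, 9 members (Cdc6, Mcm3, Mcm4, Mcm6 and Dbf4 beside the 4), 525 of all genes and 5 further genes were called, and with the block and number 3 left out of both tissues 0, 16 and 0. Leaving out 1 library at a time gave 0 to 6 members, 6 to 433 of all genes and 0 to 4 further genes, and a members' median of 0.214 to 0.252. Leaving out number 1 of both tissues gave 2, 232 and 2, number 2 gave 0, 21 and 0, with a median of 0.207, and number 3 gave 0, 2 and 0. Orc2, near 0 with all libraries, ran from -0.034 to 0.053 with 1 library left out and was -0.0050 (TMM factors), -0.0069 (thinned to equal depth), -0.0011 (number 1 left out), -0.060 (number 2 left out). Gins2, near 0 with all libraries, ran from -0.013 to 0.037 with 1 library left out and was -0.025 (number 2 left out). Gins4, near 0 with all libraries, ran from -0.042 to 0.235 with 1 library left out and was -0.096 (replicate block and number 3 left out), -0.0054 (number 2 left out), -0.096 (number 3 left out). Pole, near 0 with all libraries, ran from -0.085 to 0.136 with 1 library left out and was -0.0040 (TMM factors), -0.069 (thinned to equal depth), -0.118 (number 1 left out). Chaf1b, near 0 with all libraries, ran from -0.026 to 0.062 with 1 library left out and was -0.057 (replicate block and number 3 left out), -0.057 (number 3 left out). The cause of these changes was not tested. At 9731597 to 18478084 reads per library, every member had at least 156 reads in each.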
